A study of Mus musculus with 3 samples.

Results

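The genes described here encode 3 families of enzymes that process reactive and foreign compounds: the aldo-keto reductases of family 1, the cytosolic glutathione transferases of 6 classes, and the cytochromes P450 of families 1 to 4. Their members were matched by a rule on gene symbols that uses no expression value, although the families were picked with earlier results of these data known. Of the 16383 RefSeq transcripts in the table, 84 transcripts of 74 genes matched. These were 6 aldo-keto reductase, 19 glutathione transferase and 59 cytochrome P450 transcripts. RefSeq lists 117 protein-coding mouse genes with such symbols, and the remaining ones were not analysed here.

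The tissue was whole mouse lung of a C57BL/6J/mixed background, sequenced as total RNA, and each library gave 1 value per transcript in RPKM (reads scaled to transcript length and to library size). The single wild-type library (WT) was compared with 2 libraries labelled as knockouts of both Lin28a and Lin28b (DKO 1 and DKO 2). Exon 2 of each gene lay between loxP sites and was removed after tamoxifen by the inducible Cre NKX2.1creERT. This Cre is described as specific to epithelium, whereas the values come from all cells of the lung. The labels state the tamoxifen protocol for all 3 libraries alike, and give neither age nor sex. Nor do they state that DKO 1 and DKO 2 are different animals, so that the p-values below may measure technical spread alone.

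Aldo-keto reductases reduce aldehydes and ketones, including steroids, prostaglandins and products of lipid peroxidation, with NADPH or NADH as the electron donor. Glutathione transferases join the tripeptide glutathione to electrophilic compounds, which makes them easier to export. Cytochromes P450 are haem enzymes that oxidise drugs, inhaled chemicals, fatty acids and steroids. In the adult lung, much of this activity is known from the club cells of the airway lining. The labels give no age, so whether this holds for these libraries is not known. Many genes of these families arose by duplication and lie in clusters of near copies.

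That likeness affects what a read can tell. The start of the coding sequence is printed for 3 Akr1c genes that lie together on chromosome 13, because their values differ although their sequences are close. The sequences come from GENCODE transcripts (GRCm38), bases 1 to 120 of the coding part, and capitals mark bases that differ from Akr1c13.
Akr1c13: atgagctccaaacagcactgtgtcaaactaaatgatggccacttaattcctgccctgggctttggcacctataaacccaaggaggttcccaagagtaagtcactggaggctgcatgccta
Akr1c12: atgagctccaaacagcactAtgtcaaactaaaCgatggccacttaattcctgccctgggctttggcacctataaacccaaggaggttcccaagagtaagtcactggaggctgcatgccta
Akr1c19: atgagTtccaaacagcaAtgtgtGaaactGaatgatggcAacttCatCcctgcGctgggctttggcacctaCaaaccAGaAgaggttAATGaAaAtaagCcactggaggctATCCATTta

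In this stretch Akr1c12 differed from Akr1c13 at 2 bases and Akr1c19 at 26. Over the whole coding sequence of 972 bases, Akr1c13 was 96.2% identical to Akr1c12 and 77.8% identical to Akr1c19. Runs of 50 bases show how often a short read could come from another gene. Of the 50-base runs in the Akr1c13 transcript, 28.6% also occurred in Akr1c12, whereas none of those in Akr1c19 occurred in a transcript of another gene. Gstp1 shared the most, with 62.3% of its runs found in Gstp2, a copy that was not analysed here and is 98.1% identical in coding sequence. Gstm1 shared 23.1% and Gstm2 9.4% with other genes, while Gsta4, Gstm5, Gsto1, Gstt1 and Gstt2 shared none. How the authors' counting treated reads that match several genes is not given in the sources used here, so the values of Akr1c13, Akr1c12, Gstp1 and Gstm1 are uncertain.

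Of the 84 transcripts, 63 were listed at 0 in all 3 libraries, 11 lay below a mean of 1 RPKM, and 10 reached that mean and were tested. Of all 16383 transcripts, 68.0% were listed at 0 in all 3 libraries and 2066 were tested. In this table a 0 can be a failed estimate. Transcripts of genes with 2 or more RefSeq mRNAs were listed at 0 in 79.4% of all cases and in 24 of 27 cases among these enzymes, against 47.7% of all and 39 of 57 enzyme transcripts of genes with 1 mRNA. The 10 tested transcripts were 3 aldo-keto reductases and 7 glutathione transferases. No cytochrome P450 reached the mean for testing.

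**Figure D1:**
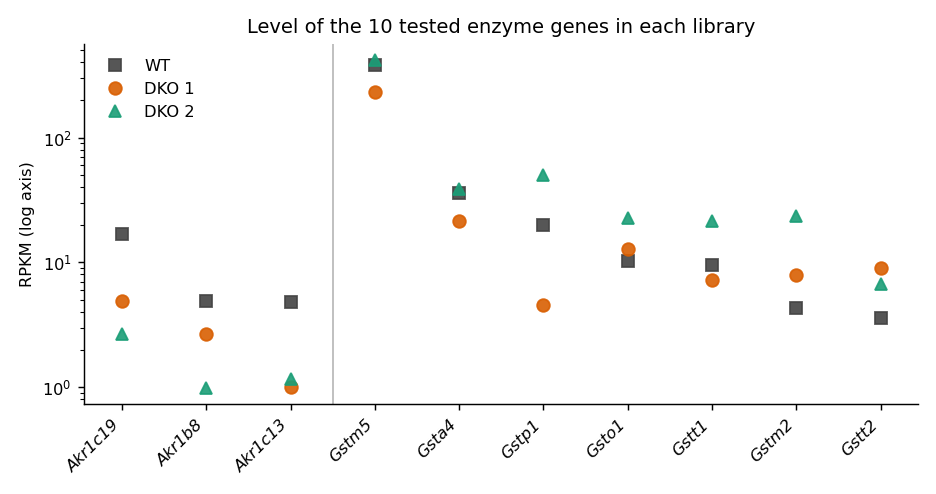
RPKM (log axis) of the 10 tested enzyme genes in WT (squares), DKO 1 (circles) and DKO 2 (triangles), with aldo-keto reductases left of the line and glutathione transferases right of it. The 3 aldo-keto reductases were highest in WT, and Gstm5 was the most abundant, between 230.2 and 415.7 RPKM.

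The aldo-keto reductases were lower in both DKO libraries than in WT. This held for 3 of the 3 tested, where 31.0% of all 2066 tested transcripts lay below WT in both. With a single WT library, the groups were also compared by size: a transcript was counted when both DKO libraries lay at least 2-fold from WT on the same side, on the log2(RPKM + 1) scale, and closer to each other than to WT. Akr1c19 and Akr1c13 met this rule, whereas 1.5% of all tested transcripts did so in that direction (3.24% after rescaling each library to the same sum). None of the 3 passed limma, a linear model fitted over all tested transcripts with Benjamini-Hochberg adjusted p under 0.05, and that test called 0.0968% of all transcripts. At an unadjusted limma p under 0.05, 1 of the 10 enzyme genes was left (Akr1c19), beside 3.19% of all transcripts.

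Akr1c19 (NM_001013785, chromosome 13, 4233503 to 4248361, GRCm38) was the most abundant of them, at 16.8 RPKM in WT against 4.93 in DKO 1 and 2.66 in DKO 2. Roughly 1016, 189 and 113 reads lay behind these levels. WT stood above both DKO libraries, and DKO 2 was the lowest. The ratio to WT was 0.293 in DKO 1 (95% exact binomial interval 0.250 to 0.343) and 0.158 in DKO 2 (0.129 to 0.192). Such intervals cover counting error only and say nothing of variation between animals. On the log2(RPKM + 1) scale the difference was −1.93 (SE 0.67, unadjusted p = 0.0134, limma adjusted p = 0.999). The adjusted p lay between 0.254 and 0.999 over the alternatives.

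Akr1c13 (NM_013778, chromosome 13, 4191168 to 4205604) reached 4.83 RPKM in WT against 1.01 in DKO 1 and 1.16 in DKO 2. The DKO libraries were close to each other, about 39 and 50 reads against 297 in WT. Their ratios to WT were 0.208 (0.144 to 0.290) and 0.241 (0.173 to 0.323), and the log2 difference was −1.49 (SE 0.70, limma adjusted p = 0.999). Its near copy Akr1c12 (chromosome 13, 4268172 to 4279399) went otherwise. It was listed at 0 in WT and in DKO 2 and had 0.503 RPKM, about 20 reads, in DKO 1. Because reads can be split between near copies, the 3 Akr1c genes were also summed, which gave 21.7 RPKM in WT against 6.44 in DKO 1 and 3.82 in DKO 2. The order of the libraries in that sum is the same as for Akr1c19, which makes up most of it.

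Akr1b8, an aldose reductase-like gene first known as induced by fibroblast growth factor, lies in another cluster (NM_008012, chromosome 6, 34354146 to 34368461). Its level was 4.91 RPKM in WT against 2.65 in DKO 1 and 0.986 in DKO 2. Both DKO libraries were again below WT, though DKO 1 by less than 2-fold. The ratios were 0.539 (0.430 to 0.670) and 0.201 (0.144 to 0.274), and the log2 difference was −1.14 (SE 0.70, limma adjusted p = 0.999). Its neighbour Akr1b7, known for clearing an aldehyde by-product of steroid synthesis, was listed at 0 in WT and DKO 1 and had 0.960 RPKM (about 42 reads) in DKO 2. Akr1b3, which encodes aldose reductase, was listed at 0 in all 3 libraries. The median difference of the 3 tested reductases was −1.49, namely −1.54 in DKO 1 and −1.57 in DKO 2, beside −0.01 over all tested transcripts.

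Promoter sequences of the Akr1c genes are shown because Akr1c13 and Akr1c19 were low in the same libraries. They are the 250 bases before the start site that the RefSeq promoter table (GRCm38.p6) gives, on the gene's strand, and capitals mark CATTAG. For Akr1c19 and Akr1c13 that start site lies inside the gene span given above, so most of the Akr1c19 stretch and the end of the Akr1c13 stretch overlap the annotated gene. These letters were chosen after the sequences had been read.
Akr1c13, chr13:4190937-4191186, plus strand: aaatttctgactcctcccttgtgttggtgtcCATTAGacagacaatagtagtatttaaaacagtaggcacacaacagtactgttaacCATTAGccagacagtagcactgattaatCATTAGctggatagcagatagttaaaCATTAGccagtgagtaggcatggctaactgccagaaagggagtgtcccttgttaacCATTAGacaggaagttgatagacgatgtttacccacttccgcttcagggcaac
Akr1c12, chr13:4279400-4279649, minus strand: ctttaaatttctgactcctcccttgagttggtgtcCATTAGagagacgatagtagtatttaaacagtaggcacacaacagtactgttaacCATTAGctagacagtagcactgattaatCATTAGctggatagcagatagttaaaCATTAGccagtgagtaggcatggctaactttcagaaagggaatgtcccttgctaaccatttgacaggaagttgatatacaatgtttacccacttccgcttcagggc
Akr1c19, chr13:4233490-4233739, plus strand: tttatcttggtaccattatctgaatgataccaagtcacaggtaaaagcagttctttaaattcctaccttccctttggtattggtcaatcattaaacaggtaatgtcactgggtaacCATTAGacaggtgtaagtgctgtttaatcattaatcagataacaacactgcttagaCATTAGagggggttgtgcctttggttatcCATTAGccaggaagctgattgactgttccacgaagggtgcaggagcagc

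CATTAG, counted on both strands, occurred 5 times in the stretch of Akr1c13, 4 times in that of Akr1c12 and 3 times in that of Akr1c19. Among 32851 such stretches of the same length, 6.36% held it at least once and 0.0244% (8 sequences) at least 3 times. The 3 Akr1c genes were among these 8, as was Cyp2c39, a P450 listed at 0 in all libraries. The other 11 family 1 reductase sequences in the table held it at most once. The 3 Akr1c genes share descent, and the match describes the sequences alone.

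**Figure D2:**
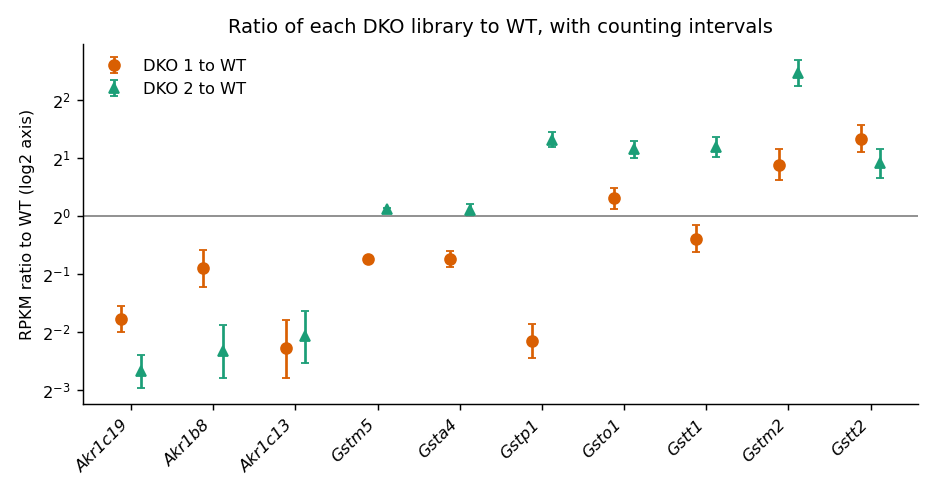
Ratio of each DKO library to WT (log2 axis) for the 10 tested enzyme genes, with 95% exact binomial intervals from approximate read numbers as bars, which cover counting error only. Both ratios lie below 1 for the aldo-keto reductases, while for Gstp1 the ratio is 0.226 in DKO 1 and 2.50 in DKO 2.

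The glutathione transferases did not follow a shared direction from WT. Of the 7 tested, 3 lay above WT in both DKO libraries, where 32.1% of all tested transcripts did, and 4 lay below WT in DKO 1 and above it in DKO 2, where 19.4% of all did. This split depends on the scaling: 2 of the 7, Gsta4 and Gstm5, lay below WT in both libraries with median scaling or after rescaling to the same sum, and 1, Gsta4, with quantile normalization or without haemoglobin genes. None met the 2-fold rule or passed limma. The DKO libraries differed from each other instead: 6 of 7 were higher in DKO 2 than in DKO 1, against 53.8% of all transcripts. Their median gap between the DKO libraries was 0.85 on the log2(RPKM + 1) scale, beside 0.08 for all. The median difference from WT was 0.39, made up of −0.34 in DKO 1 and 1.08 in DKO 2.

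Gstm5, of the mu class, was by far the most abundant of the enzymes (NM_010360, chromosome 3, 107895854 to 107898685). WT stood at 382.3 RPKM, DKO 1 at 230.2 and DKO 2 at 415.7. Gsta4, an alpha class enzyme that conjugates the reactive aldehydes made when lipids are oxidised (NM_010357, chromosome 9, 78191966 to 78209349), had 35.8, 21.5 and 38.8 RPKM in the same order. The groups overlapped for both as deposited, with WT between the DKO libraries, though DKO 2 was close to WT. Its difference from WT on the log2(RPKM + 1) scale, 0.12 for Gstm5 and 0.11 for Gsta4, became −0.0029 and −0.011 with median scaling and −0.26 for each after rescaling to the same sum, and for Gsta4 it was −0.085 with quantile normalization and −0.0045 without haemoglobin genes. Although the genes lie on different chromosomes, their ratios to WT were alike: 0.602 (0.585 to 0.619) and 0.601 (0.548 to 0.658) in DKO 1, and 1.09 (1.06 to 1.11) and 1.08 (1.004 to 1.16) in DKO 2. The log2 differences from WT were −0.30 for Gstm5 (SE 0.81) and −0.30 for Gsta4 (SE 0.78), with a limma adjusted p of 0.999 each.

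Gstp1, the pi class enzyme, which is abundant in many epithelia, had the widest spread (NM_013541, chromosome 19, 4035411 to 4037912). WT stood at 19.99 RPKM, DKO 1 at 4.51 and DKO 2 at 50.02, from roughly 798, 114 and 1408 reads. DKO 1 was the lowest and DKO 2 the highest, with WT between them. The ratio of DKO 2 to DKO 1 was 11.1 (9.16 to 13.5), and a gap between the DKO libraries as large as this was found in 0.73% of all tested transcripts. The ratios to WT were 0.226 (0.184 to 0.275) and 2.50 (2.29 to 2.73), on opposite sides, and the mean log2 difference was −0.32 (SE 1.07, limma adjusted p = 0.999). The reads that Gstp1 may share with Gstp2 touch all 3 values.

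The mu class gene Gstm2 lay above WT in both DKO libraries (NM_008183, chromosome 3, 107981702 to 107986420). Levels were 4.28 RPKM for WT, 7.94 for DKO 1 and 23.7 for DKO 2, with ratios to WT of 1.86 (1.55 to 2.23) and 5.54 (4.77 to 6.45). The DKO libraries were further from each other than DKO 1 was from WT, and the log2 difference was 1.49 (SE 0.77, unadjusted p = 0.0754, limma adjusted p = 0.999). Gstm1, of the same cluster, had 0.254, 0.378 and 1.83 RPKM, in the same order of libraries. The 2 genes are 86.0% identical in coding sequence. Gstm3, Gstm4 and Gstm6 of this cluster were listed at 0 throughout. Because Gstm5 dominates, the sum over the mu class followed that gene, with 386.8, 238.6 and 441.2 RPKM.

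Of the theta class, which handles small halogenated compounds and sulfate esters, Gstt2 lay above WT in both DKO libraries, at 9.07 RPKM in DKO 1 and 6.76 in DKO 2 against 3.58 in WT. It was the exception among the transferases in being higher in DKO 1. Its ratios to WT were 2.53 (2.15 to 2.98) and 1.89 (1.59 to 2.24), and the log2 difference was 0.95 (SE 0.65, limma adjusted p = 0.999). Gstt1, its neighbour on chromosome 10, had 9.45, 7.23 and 21.7 RPKM, so WT lay between the DKO libraries. The omega class gene Gsto1, whose product also reduces dehydroascorbate, had 10.3, 12.7 and 22.8 RPKM and was above WT in both. The zeta class gene Gstz1 and the alpha class genes Gsta1, Gsta2 and Gsta3 were listed at 0 in every library, Gstz1 and Gsta3 over 3 transcripts each.

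**Figure D3:**
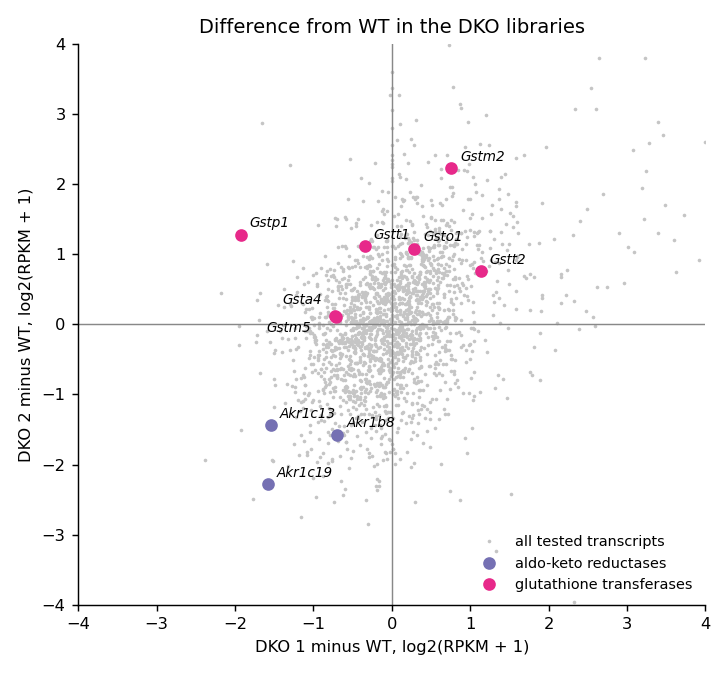
Difference from WT in DKO 1 (x axis) and DKO 2 (y axis), both on the log2(RPKM + 1) scale, for the tested transcripts (grey), aldo-keto reductases (purple) and glutathione transferases (pink). The reductases lie below 0 on both axes and the transferases above 0 in DKO 2 in the values as deposited, where Gsta4 and Gstm5 fall below 0 with median scaling or rescaling to the same sum, and Gsta4 also with quantile normalization or without haemoglobin genes. Of the transcripts drawn, 10 of 2066 lie outside the axes.

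The promoter windows were also searched for the letters read by the factors best known to control such enzymes. These are the core of the antioxidant response element (TGACNNNGC), which the factor NRF2 binds with a small MAF partner, and that of the xenobiotic response element (GCGTG), which the aryl hydrocarbon receptor binds. The windows ran from 250 bases before to 50 after the start site and both strands were read. Of 73 windows of 63 enzyme genes, 6 held TGACNNNGC (8.2%) and 14 held GCGTG (19.2%), against 12.4% and 32.4% of 32851 windows. Among the 8 tested genes with a window, Akr1c19 held TGACNNNGC 7 bases after the start, on the opposite strand, and Gstm5 held it 42 bases before the start. The Gstm5 sequence is shown because that gene is the most abundant of the set, with the match in capitals, and 1 of its GCGTG matches, on the opposite strand, overlaps it.
Gstm5, chr3:107895604-107895853, plus strand: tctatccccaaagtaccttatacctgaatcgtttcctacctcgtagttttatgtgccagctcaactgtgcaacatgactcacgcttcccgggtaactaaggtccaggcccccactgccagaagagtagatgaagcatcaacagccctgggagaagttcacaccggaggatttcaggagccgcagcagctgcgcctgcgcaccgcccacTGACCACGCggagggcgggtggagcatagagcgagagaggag

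Few cytochromes P450 had a value above 0, and a 0 can be a failed estimate here. Of 59 transcripts, 51 were listed at 0 in all 3 libraries, beside 68.0% of all transcripts in the table. The other 8 had at most 0.812 RPKM in any library. Cyp2f2, the club cell enzyme that activates naphthalene, was listed at 0, as were the aryl hydrocarbon receptor targets Cyp1a1 and Cyp1a2, all 3 Cyp2a, all 5 Cyp2b, all 4 Cyp2d and all 6 Cyp4a transcripts. Of the 8 that were above 0 somewhere, Cyp2j6 was the one with more than 50 reads in every library. Its values were 0.800 RPKM for WT, 0.744 for DKO 1 and 0.447 for DKO 2. DKO 2 was lower, with a ratio to WT of 0.559 (0.400 to 0.766), whereas the interval in DKO 1 held 1 (0.704 to 1.24).

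Other P450 genes were high in a single library. Cyp4b1, a fatty acid hydroxylase typical of lung that also activates inhaled toxins, stood at 0.0768 RPKM in WT, at 0.174 in DKO 1 and at 0.812 in DKO 2, from roughly 7, 10 and 53 reads. Cyp2c29 had 0.667 RPKM in WT but 0.0365 in DKO 1, and DKO 2 was listed at 0, so WT was the high library. Cyp4f17 (0.520 RPKM) and Cyp3a13 (0.353 RPKM) were above 0 in DKO 1 alone. Cyp1b1, which oxidises oestrogens and retinoids, had 0.0801, 0.153 and 0.342 RPKM, or about 20, 24 and 60 reads. At 1 to 140 reads per value, and with no transcript at the mean for testing, these are levels of 3 libraries and not a comparison of genotypes.

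**Figure D4:**
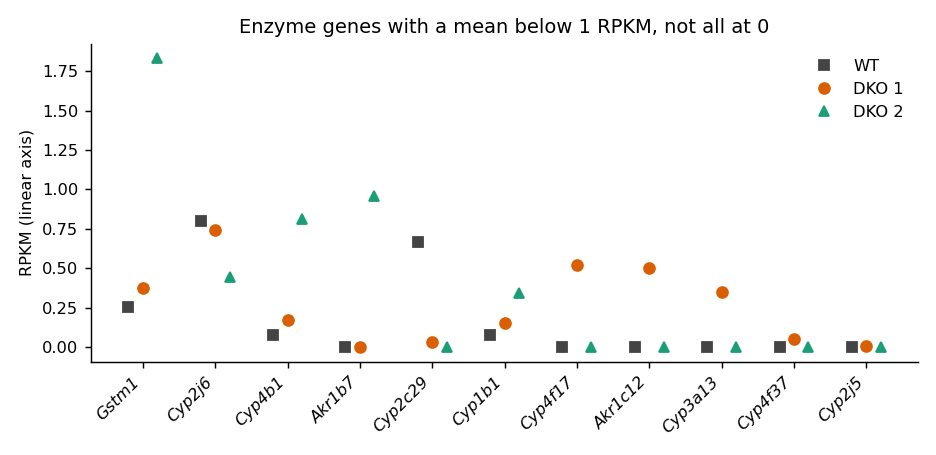
RPKM (linear axis) in each library for the 11 enzyme genes with a mean below 1 RPKM that were above 0 in at least 1 library. Most were high in a single library, such as Gstm1, Cyp4b1 and Akr1b7 in DKO 2, Cyp2c29 in WT, and Akr1c12, Cyp3a13 and Cyp4f17 in DKO 1.

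Genes that work with these enzymes were taken from 4 lists, which hold none of the enzymes above. Of 32 genes of the oxidative stress response led by NRF2, 29 were in the table and 16 transcripts were tested. None passed limma (smallest adjusted p = 0.999), and 2 had an unadjusted p under 0.05, Nqo1 and the ferritin gene Ftl1, beside 3.19% of all transcripts. By size, 2 met the 2-fold rule above WT, where 3.19% of all transcripts did (3.44% after rescaling each library to the same sum), and 0 below it. The list's median difference was −0.11, beside −0.01 over all transcripts. Nqo1, a quinone reductase and standard NRF2 target, reached 2.48 RPKM in DKO 1 and 4.65 in DKO 2 against 0.278 in WT (log2 difference 1.79, SE 0.72, unadjusted p = 0.0279, limma adjusted p = 0.999). Cat, which encodes catalase, had 3.73, 9.24 and 10.9 RPKM. Ranked on whichever DKO library lay nearer to WT, those furthest below WT were Mafg, a small MAF partner of NRF2, with 2.35, 1.67 and 0.947 RPKM, and Pgd, an enzyme of the pentose phosphate pathway that yields NADPH, with 9.83, 4.88 and 8.85 RPKM. Sod1 (822.1, 347.9 and 794.2 RPKM) and Taldo1 (33.2, 14.8 and 31.1 RPKM) were lower on average than these but near WT in DKO 2. Nqo1 reached the mean for testing through its DKO values. Of the 16 tested, 6 lay above WT in both DKO libraries and 4 below it, beside 32.1% and 31.0% of all transcripts. Any link of this list to the aldo-keto reductase values was not tested.

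Of 30 other genes of glutathione metabolism, 18 were in the table and 7 transcripts were tested, of which 0 passed limma, 0 had an unadjusted p under 0.05 and 0 met the 2-fold rule (median 0.41). Gclm, the regulatory subunit of the enzyme that starts glutathione synthesis, stood at 1.58, 3.08 and 2.48 RPKM, in the order WT, DKO 1, DKO 2. Gsr, which regenerates glutathione, had 4.95, 1.77 and 2.86 RPKM, and the peroxidase Prdx6 had 25.6, 10.6 and 20.4 RPKM, both below WT in both libraries. The most abundant, the glutathione peroxidase Gpx1 (added after its values were seen), had 187.5, 129.7 and 963.9 RPKM, on either side of WT with DKO 2 highest, the same order as in Gstp1, Gstm5 and Gsta4.

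Among 41 other oxidising and conjugating enzymes, 20 were in the table and 4 were tested, with 0 passing limma, 1 at an unadjusted p under 0.05 and 1 above WT by the 2-fold rule (median −0.18). Both counts are Aldh1a2, which makes retinoic acid and also marks mesothelium, with 3.75, 11.4 and 13.8 RPKM. Of all tested transcripts, 3.19% had an unadjusted limma p under 0.05 and 3.19% lay above WT by the 2-fold rule. Aldh1a1, also a club cell marker, had 2.22, 1.38 and 0.590 RPKM, and the alcohol dehydrogenase Adh1 had 33.1, 26.1 and 30.4 RPKM. Of 24 partners and receptors of the P450 system, 18 were in the table and 2 were tested (median −0.18), and neither passed limma, also unadjusted, or met the 2-fold rule. Por, the reductase that passes electrons to the P450 enzymes, was nearly level, with 2.62, 3.08 and 2.87 RPKM. Nr3c1, the glucocorticoid receptor, had 2.33, 1.81 and 1.002 RPKM. The aryl hydrocarbon receptor gene Ahr had 0.254, 0.528 and 0.117 RPKM, and the receptor genes Nr1i2 and Nr1i3 were listed at 0.

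**Figure D5:**
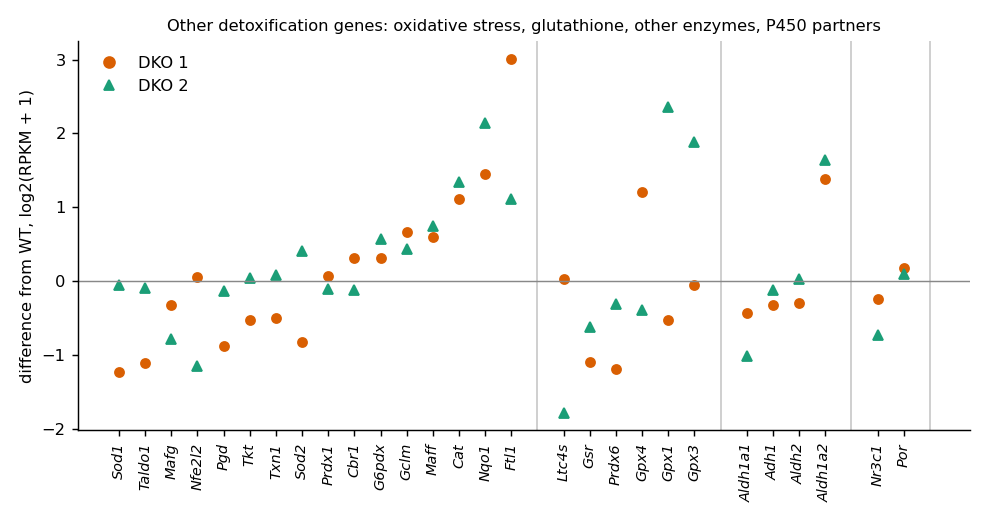
Difference from WT on the log2(RPKM + 1) scale in DKO 1 (circles) and DKO 2 (triangles) for 28 tested transcripts of the 4 lists, ordered within each list and each gene drawn once. Nqo1, Cat and Aldh1a2 lie above WT in both libraries, while for Gpx1 the libraries lie on opposite sides.

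Markers of the lung and of other tissues moved between the same libraries. Of the label's tissue, 14 genes of alveolar type 2 cells, 10 of them in the table and 3 tested, summed to 370.7, 10.9 and 42.3 RPKM, in the order WT, DKO 1, DKO 2. The surfactant gene Sftpc, at 369.3, 7.55 and 0.0364 RPKM, lay below WT in both and passed limma (adjusted p = 0.0199). The other tested ones lay above WT in both, Ctsh with 1.04, 2.39 and 2.92 RPKM and S100g with 0.214, 0.815 and 38.98 RPKM, so the list had no shared direction (median difference 0.84). The 14 genes of smooth muscle and mesenchyme, all in the table and 8 tested, summed to 108.7, 148.5 and 103.6 RPKM. Of these 8, 4 lay above WT in both libraries and 1 below it, and 0 passed limma. Nkx2-1 was listed at 0. Lin28b itself, at 0.449, 0.187 and 0.590 RPKM, was below 1 RPKM in every library and was not tested. Its value was not lower in the library labelled DKO 2 than in WT. Reads outside the removed exon 2 can still count towards this value, as can reads from cells that are not epithelium. Whether the deletion took place was therefore not tested by it. Of 14 club cell genes other than P450s, 9 were in the table and 4 were tested, with a summed level of 7.58, 6.07 and 6.17 RPKM, and the defining Scgb1a1 was listed at 0 in all 3. The 15 genes of epithelium in general, 11 of them in the table and 4 tested, summed to 37.2, 20.4 and 36.6 RPKM. Of the 4, Epcam (17.43, 6.75 and 10.6 RPKM) and Foxa1 (2.64, 0.798 and 0.688 RPKM) lay below WT in both libraries. Of all tested transcripts, 31.0% did so. Krt19 lay above WT in both (3.08, 6.17 and 9.11 RPKM), and Krt18 on either side (12.25, 4.10 and 14.7 RPKM). By the 2-fold rule 1 lay below WT, where 1.5% of all did, and 0 passed limma. The low sum in DKO 1 stood beside the low Gstm5, Gsta4 and Gstp1 values of that library. The part of epithelium in the enzyme values was not tested.

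Liver markers were high in DKO 2, the library in which 6 of the 7 tested transferases, all but Gstt2, were higher than in DKO 1. Gstm5 and Gsta4 were close to WT there, at ratios of 1.09 and 1.08. The 18 hepatocyte genes, 14 of them in the table and 5 tested, summed to 7.55 RPKM for WT, 11.4 for DKO 1 and 184.6 for DKO 2, with albumin (Alb) at 0, 0.654 and 14.8 RPKM and Afp at 1.95, 0.891 and 69.96. Of P450 genes typical of liver, Cyp3a11 was listed at 0 in all 3 libraries and Cyp2c29 in DKO 2. Either 0 can be a failed estimate. The 12 erythroid genes, all in the table and 6 tested, summed to 20205.1, 28715.8 and 102772.0 RPKM. The globin gene Hbb-y gave most of each sum, with 18350, 25260 and 91330 RPKM. Neutrophil genes, 11 of 12 in the table and 3 tested, came to 3.22, 80.0 and 128.8 RPKM, with S100a9 listed at 0. Macrophage genes, 11 of 12 in the table and 6 tested, summed to 79.8, 359.8 and 97.8 RPKM. Steroid cell genes, 11 of 13 in the table and 1 tested, summed to 2.43, 7.12 and 18.3 RPKM, of which Hsd3b6 gave most in both DKO libraries and Hsd3b1 and Lhcgr in WT, with the defining Star at or below 0.0564. The part of these cells in the enzyme values was not tested. The Y-linked genes Ddx3y and Eif2s3y were listed at 0 in WT and above 0 in both DKO libraries, so sex and genotype cannot be told apart. In whole tissue, fewer cells of a type and less RNA per cell cannot be told apart either.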

How the data were processed

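The authors deposited RPKM values per RefSeq transcript, 1 column for each of 3 libraries. Per the submitters' processing notes the tools were cutadapt, TopHat2, HTSeq and edgeR on build mm10. The sources used here give no versions, annotation, transcript lengths or strand setting. Per the labels' protocols, RNA was extracted with Trizol and amplified with the SMARTer Ultra Low Input kit. RefSeq (GRCm38.p6) named 16150 rows and GENCODE M21 a further 78.

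From these values log2(RPKM + 1) was computed, and transcripts averaging 1 RPKM or more over the libraries were tested with limma 3.58.1 in R 4.3.3 (trend, two-sided, Benjamini-Hochberg), with 1 residual and 11.2 prior degrees of freedom. The fit takes the spread of WT from the DKO libraries. RPKM times transcript length gave the worth of 1 read, implying about 48600000 reads in WT, 30800000 in DKO 1 and 34300000 in DKO 2. Only 38.6%, 30.2% and 29.6% of low values then lay within 0.05 of a whole read, so read numbers are approximate. Runs of 50 bases were compared on the sense strand. Intervals are Clopper-Pearson intervals (SciPy 1.17.1). The fit was also run on simulated data with the same planted difference in both DKO libraries and a fixed spread. That run does not show how the fit performs at the spread of these libraries. The enzymes, lists and tests were chosen with earlier results of these data known. Genes named are the tested enzymes, those with at least 0.5 RPKM in a library, and up to 2 genes above and 2 below WT per list. Defining markers, Lin28b and the Y-linked genes were named as context. Other genes were added after their values were seen. These are Cyp1b1, Cyp3a13, Gpx1, Ahr, Ftl1, Sod1, Taldo1, Ctsh, S100g, Foxa1, Krt18, Krt19, Hbb-y, Hsd3b6, Hsd3b1, Lhcgr and genes listed at 0.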

Additional observations from a re-analysis of the deposited data

How the results depend on the processing

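No paired analysis was possible because the groups share fewer than 2 replicate numbers. Among the 10 tested enzymes, 0 passed limma in each of the 11 alternative fits that gave a test, with adjusted p from 0.254 to 0.999. Of their 128 recomputed differences, 124 kept their direction, and where a test was possible they stayed on the same side of the threshold. The others came from leaving out a DKO library, over which the difference ran from −0.71 to 0.11 for Gsta4, −0.73 to 0.12 for Gstm5, −1.93 to 1.28 for Gstp1 and −0.34 to 1.12 for Gstt1. The count of 2 enzymes past the 2-fold rule was 1 with a pseudocount of 5 (Akr1c13 lost). It was also 1 with a filter at 5 RPKM (Akr1c13 not tested), and 4 to 7 with a single DKO library. The rule is looser there, because it asks nothing of the other DKO library. DKO 2 alone put 4 enzymes above and 3 below WT, beside 311 and 244 of all 2066 transcripts. DKO 1 alone put 1 above and 3 below, beside 166 and 114. With both libraries, 66 of all transcripts lay above WT by this rule and 31 below. The reductase median of −1.49, over 3 transcripts, was −2.06 with a pseudocount of 0.1 and −0.69 with 5. Without a filter on low values (transcripts above 0 in any library) it was −1.14, over 5 transcripts. A filter at 5 RPKM left 1 transcript, Akr1c19, at −1.94. For the same 3 transcripts the median was −1.55 with median scaling, with quantile normalization and without haemoglobin genes. It was −2.00 with rescaling to the same sum, and −1.57 to −1.54 with a single DKO library. Over all transcripts, the 2 limma calls became 13 with a pseudocount of 0.1, 1 with 5, 0 without a filter, 10 with a filter at 5 RPKM, 16 with median scaling, 14 without haemoglobin genes, and 0 with quantile normalization or rescaling to the same sum. That rescaling moved the median of all transcripts from −0.01 to −0.22. The P450 median had no value at the main filter, and without a DKO library no test was possible. Of the P450 values above 0, most rest on fewer than 100 reads.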
